A study of Capra hircus with 198 samples.

Results

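The amino acid transporter families were taken as all features of the deposited count table whose symbol names a gene of SLC6A, SLC7A, SLC36A, SLC38A or SLC43A followed by a number. This rule found 45 of the 39734 features: 18 of SLC6A, 11 of SLC7A, 2 of SLC36A, 11 of SLC38A and 3 of SLC43A. The study sequenced total RNA from 33 tissues of the same 6 goats, giving 198 libraries. All 6 animals were adult female Murciano-Granadina goats, a Spanish dairy breed, and each library is 1 tissue of 1 goat. Goats 2, 3 and 6 were in lactation and goats 54, 64 and 73 were dry, with no treatment or genetic change in either group, and their ages were not given in the sources used here. With 3 goats a state, lactation cannot be told apart from any other difference between these 2 sets of goats, and libraries of different tissues are not independent because the goats recur in all of them. Values are CPM, a feature's count scaled to a library total of 1000000, which is not divided by gene length, so an order of genes is an order of counts only.

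Amino acids cross cell membranes through carrier proteins, and most cells hold several with overlapping substrates. SLC38 and most SLC6 carriers use the inward sodium gradient, SLC36 carriers use protons, SLC43A1 and SLC43A2 let neutral amino acids pass without an ion gradient, and most SLC7 light chains work as exchangers bound to a heavy chain, SLC3A1 or SLC3A2. In the lactating mammary gland these carriers bring the building blocks of milk protein from blood into the epithelium. In gut and kidney they absorb amino acids from the lumen, and in brain the SLC6 branch also clears the transmitters GABA, glycine and the monoamines.

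Library totals ran from 1309071 to 8967448 counts with a median of 4631624, so that 3 counts correspond to 2.29 CPM in the smallest library and 0.335 CPM in the largest; such limits cover counting error only. Between 77.0% and 90.9% of the counts of a library lay on long non-coding RNA (lncRNA) features, and all 45 transporters together took 104 to 452 CPM. Some libraries went against their labels. The duodenum library of goat 2 held stomach genes (ATP4B, the gastric proton pump subunit, at 223 CPM) and 0.25 CPM of the enterocyte gene FABP2, whereas the abomasum library of the same goat held no ATP4B. The frontal neocortex library of goat 2 held 2.60 CPM of the neuronal gene SNAP25, against 76.1 to 237 CPM in the other goats, and the libraries labelled neurohypophysis held 424 to 1681 CPM of GH1, a hormone of the anterior lobe. Comparisons that draw on the goat 2 libraries named here were also computed without goat 2, but those values are given below for some results only. Tissue means given below keep goat 2. Leaving out goat 2 does not remove the GH1 of the neurohypophysis libraries, and values given below for neurohypophysis carry that limit. Because whether counting used strand is not stated, reads of overlapping or antisense features cannot be told apart. In RefSeq, 6 members overlap another gene (SLC38A6, SLC38A8, SLC6A2, SLC6A9, SLC6A14 and SLC6A20). SLC7A4, SLC6A8 and SLC38A5 are not placed on a chromosome there, so their overlaps could not be checked. Of the members, 15 have an lncRNA feature named for them.

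Of the 45 transporters, 41 reached a mean of 1 CPM in at least 1 tissue and 10 did so in all 33 tissues. The 4 that never did were SLC38A5, SLC6A3, SLC6A16 and SLC7A3. Tissue restriction was measured with tau, a fraction that is 0 for even expression and 1 for expression in 1 tissue, computed on log2(CPM + 1) of the tissue means. The median tau of the 41 was 0.591, against 0.482 for 19721 other features outside the lncRNA annotation, and 11 of the 41 (26.8%) had tau of at least 0.8, against 14.6% of those features. The count of 11 became 5 when CPM was taken over features outside the lncRNA annotation. The share of the other features on that scale is not given, so the contrast with 14.6% covers CPM over all features only. Liver and kidney medulla were each the highest tissue of 5 members, and lung was that of 4.

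**Figure D1:**
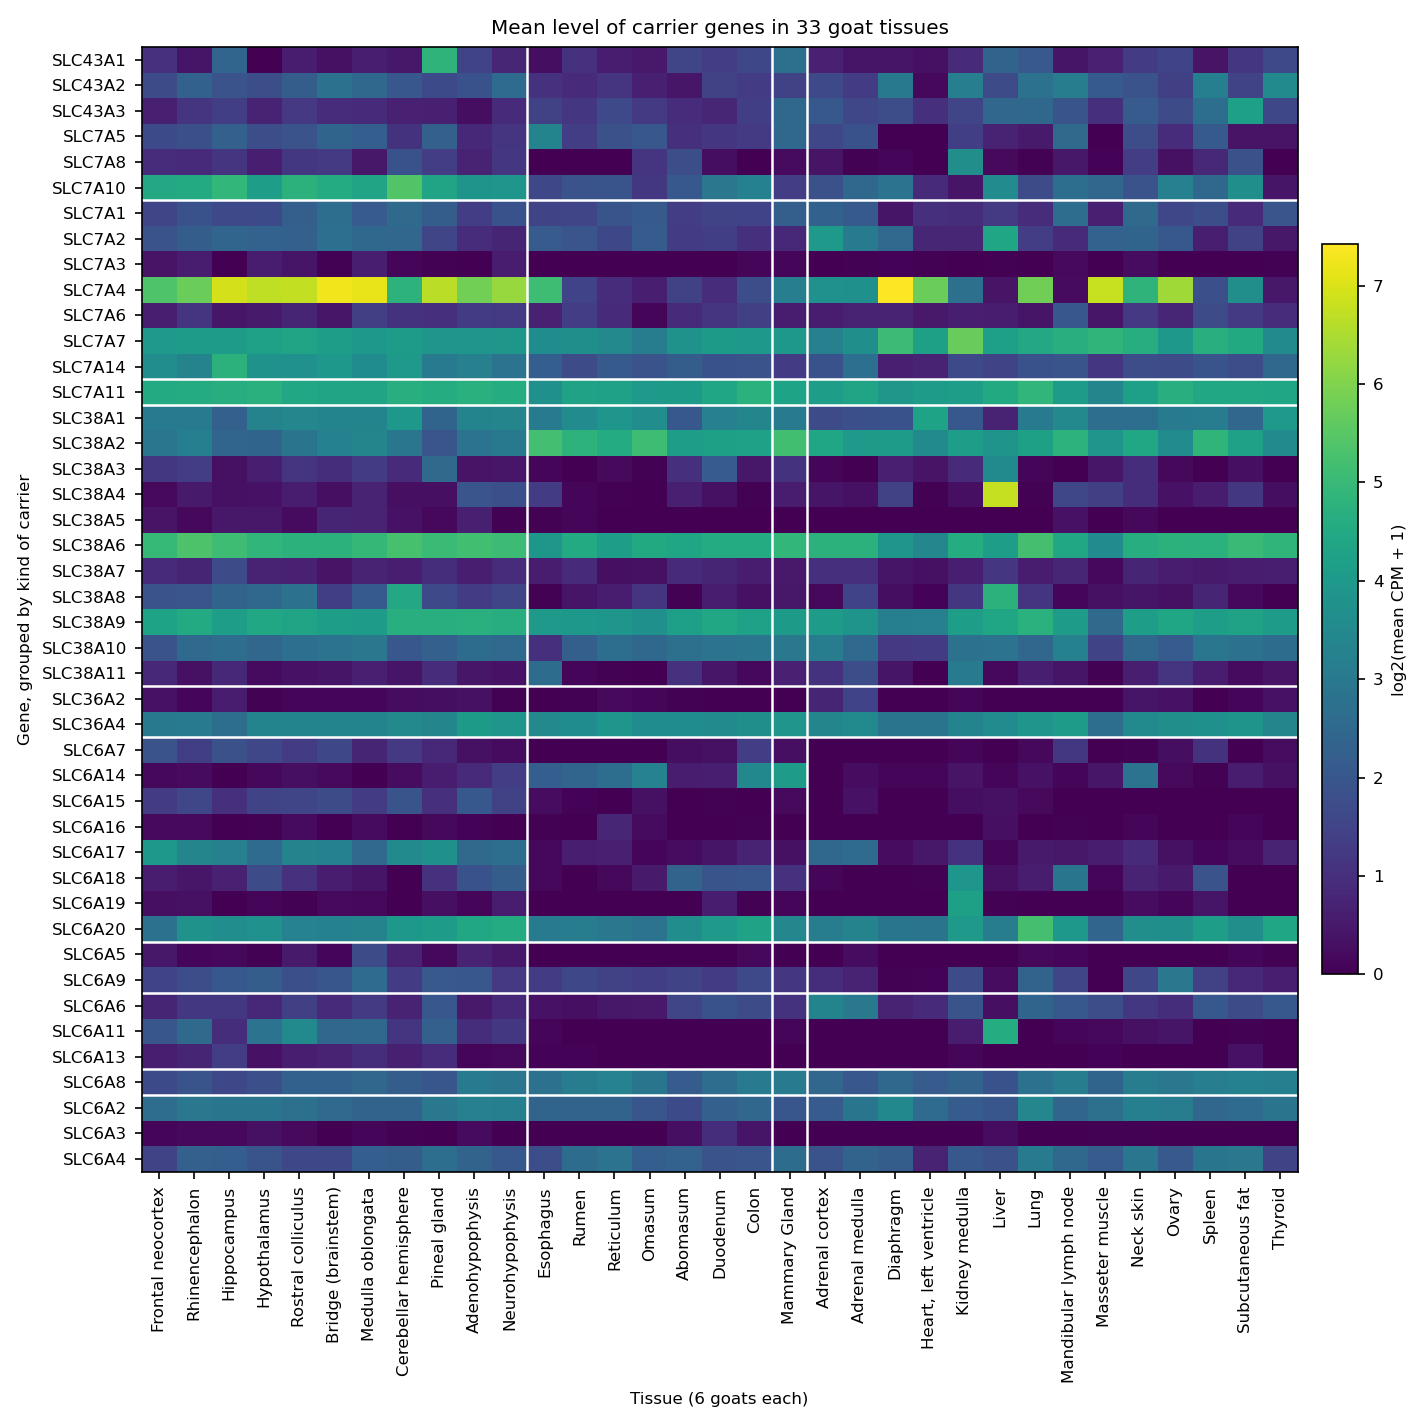
Heat map of log2(mean CPM + 1) for all but 1 of the transporters (rows, grouped by kind of carrier) in the 33 tissues (columns), each cell being the mean of 6 goats. SLC38A4 stands out in liver at a mean of 109 CPM, whereas SLC7A11, SLC38A9 and SLC38A6 have nearly even colour across the columns.

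The most even carriers were SLC7A11, the cystine/glutamate exchanger (tau 0.114), SLC38A9, a lysosomal carrier that senses arginine (0.130), SLC38A6, a SLC38 member with few known substrates (0.134), and SLC36A4, a high-affinity proline and tryptophan carrier (0.154). Their means over the 33 tissues were 19.8, 17.4, 25.5 and 10.5 CPM, and their highest tissues were lung, lung, rhinencephalon and mandibular lymph node. The tau values in the authors' deposited table were 0.145, 0.0898, 0.101 and 0.136 for the same 4 genes. SLC38A6 overlaps TRMT5 in RefSeq. The largest mean over tissues belonged to SLC7A4, a member of the cationic branch whose transport activity is not settled, at 47.7 CPM. Its level was 170 ± 51.4 CPM (SD, n = 6) in diaphragm, 153 CPM in the bridge (pons) and 143 CPM in medulla oblongata, but 0.31 CPM in liver. The remaining members among the 8 highest means over tissues were SLC7A7 at 17.6 CPM, SLC38A2 at 15.6 CPM and SLC6A20 at 12.3 CPM. An lncRNA feature named SLC7A4-OT1 had a mean of 61.7 CPM and exceeded SLC7A4 in 163 of 198 libraries.

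High tau values among members of at least 2 CPM in their highest tissue belonged, for example, to SLC6A19 (0.973), SLC6A5 (0.922), SLC38A4 (0.910), SLC6A11 (0.836), SLC7A8 (0.822), SLC38A3 (0.822) and SLC38A11 (0.812). SLC38A4, a sodium-coupled carrier of neutral and cationic amino acids known from liver, ran from 75.1 to 147 CPM in the 6 liver libraries with a mean of 109 ± 28.1 CPM (SD, n = 6). The next tissue, adenohypophysis, had 2.88 CPM. SLC38A4 was the only transporter whose 6 libraries of its highest tissue all lay above all other libraries. Its antisense lncRNA feature SLC38A4-AS1 averaged 40.3 CPM over all libraries, and SLC38A4 itself averaged 3.94 CPM. Also highest in liver were SLC38A8, a glutamine carrier, at 26.0 ± 5.99 CPM (SD, n = 6), SLC6A11, the GABA transporter GAT3, at 23.3 ± 7.21 CPM, SLC7A2, the cationic carrier CAT2, at 19.8 ± 8.83 CPM, and SLC38A3, the glutamine carrier SNAT3, at 10.7 ± 6.32 CPM. SLC6A11 was thus higher in liver, at 15.3 to 34.7 CPM, than its mean in any brain region, the highest of which was 10.6 CPM in rostral colliculus.

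Kidney medulla was the highest tissue of SLC6A19, the apical carrier of neutral amino acids, at 17.8 ± 19.5 CPM (SD, n = 6), and of its neighbour SLC6A18 at 13.9 ± 7.25 CPM. It was also highest for SLC7A7, a basolateral exchanger of cationic amino acids, at 51.4 ± 37.6 CPM, for SLC7A8, a basolateral exchanger of neutral amino acids, at 11.6 ± 13.1 CPM, and for SLC38A11 at 7.45 ± 2.65 CPM. The SD exceeded the mean for SLC6A19 and SLC7A8, and the goats behind that spread are given with the state comparison. SLC6A20, the proline and imino acid carrier, was highest in lung at 36.6 ± 19.7 CPM, ahead of neurohypophysis at 22.5 CPM. SLC38A1, a glutamine carrier, was highest in heart at 18.8 ± 8.27 CPM, SLC6A6, the taurine carrier, in adrenal cortex at 9.28 CPM, and SLC43A2, a carrier of large neutral amino acids, in thyroid at 10.6 CPM.

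The mammary gland was compared between lactating and dry goats, and a member was called where its adjusted p was under 0.05 by edgeR's quasi-likelihood test with Benjamini-Hochberg adjustment over all features tested in that tissue. The milk protein genes marked the states: CSN2, beta-casein, was at 7096 to 8894 CPM in the lactating glands and at 0.20 CPM or less in the dry ones. Of 45 transporters, 18 passed the filter on low counts, and 12 of these had a log2 difference above 0, where 53.9% of all features did so. The median of the 18 was 0.78, against 0.07 over all 18214 features. Only SLC7A4 was called, 1 of 18, in a background of 1.05% of features, and 7 of the 18 had an unadjusted p under 0.05. For counts at an unadjusted p, here and below, the share over all features is not given, so they are not read as an excess. In 8 of the 18 every lactating gland lay above every dry one, where 9.99% of all features did so. In 1, SLC43A1, every lactating gland lay below every dry one, where 10.8% of features did so (20.8% of features in either direction). A member near 0 in the dry glands, such as SLC7A4 at 0.614 CPM at most, passed the filter on low counts only through its lactating glands. For such members, passing the filter and not overlapping are tied. The counts of 12, 8 and 1 and the median of 0.78 are therefore not read as an excess either. In bulk tissue, fewer cells of a type and less RNA per cell cannot be told apart.

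SLC7A4 was at 18.4, 22.1 and 6.43 CPM in the lactating glands of goats 2, 3 and 6 and at 0.614, 0.195 and 0 CPM in the dry glands of goats 54, 64 and 73. The groups did not overlap, and the dry values lie at or under the level of 3 counts. The fitted log2 difference, which depends on the prior count at such levels, was 5.74 (SE 0.89, adjusted p = 0.0264). The call was lost when goat 2, 3, 6, 64 or 73 was left out, and its adjusted p ran from 5.24e-07 to 0.140 over the alternatives. SLC7A4-OT1 read 40.8, 76.4 and 39.8 CPM in lactating and 24.1, 24.4 and 32.8 CPM in dry glands. Titin (TTN) and nebulin (NEB), giant proteins of striated muscle, were also higher in the lactating glands. TTN ran from 69.8 to 119 CPM against 8.8 to 14.7 CPM, while ACTA1, the skeletal muscle actin, was at 0 in all 6 glands and CKM and MB were at 0.22 CPM at most. The part of this in the SLC7A4 values was not tested.

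Several uptake carriers had all 3 lactating glands above all 3 dry ones without passing the threshold. SLC6A14, a sodium- and chloride-coupled carrier of neutral and cationic amino acids, was at 42.8, 7.96 and 36.6 CPM in lactating and at 0.41, 3.32 and 5.88 CPM in dry glands. The groups did not overlap, with goat 3 the lowest of the lactating goats and goat 54 the lowest of the dry (log2 difference 3.37, SE 0.88, edgeR adjusted p = 0.138). SLC7A1, the arginine and lysine carrier CAT1, was at 6.50, 6.14 and 6.43 CPM against 0.819, 0.391 and 2.26 CPM, again without overlap and with nearly equal lactating values (2.58, SE 0.75, edgeR adjusted p = 0.185). SLC7A5, the large neutral exchanger LAT1 that takes up leucine, was at 3.36, 11.8 and 7.77 CPM against 0.614, 2.34 and 2.04 CPM (2.24, SE 0.73, edgeR adjusted p = 0.238). The lowest lactating value of SLC7A5, in goat 2, lay close above the highest dry one, in goat 64. SLC38A2, the glutamine carrier SNAT2, was at 53.1, 42.8 and 69.2 CPM against 0, 25.8 and 21.0 CPM (1.95, SE 1.01, edgeR adjusted p = 0.486). Here the dry gland of goat 54 held no count, and that gland also had low levels of epithelial genes (KRT8 at 4.91 CPM). Without goat 54 the SLC38A2 difference was 1.36 (edgeR adjusted p = 0.137; 0.735 at most over the alternatives).

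SLC43A3, a purine base carrier of the SLC43 family, was at 7.84, 9.78 and 5.33 CPM in lactating against 0, 1.17 and 3.62 CPM in dry glands (log2 difference 2.38, edgeR adjusted p = 0.381). SLC6A4, the serotonin transporter, was at 8.74, 5.91 and 7.10 CPM against 4.10, 1.95 and 2.94 CPM (1.38, edgeR adjusted p = 0.379), and SLC6A20 at 11.3, 13.8 and 11.9 CPM against 6.73, 4.33 and 10.7 CPM (0.88, edgeR adjusted p = 0.459). None of these groups overlapped. The single member on the other side was SLC43A1, the branched-chain amino acid facilitator LAT3, at 0.672, 2.27 and 1.33 CPM in lactating and 9.62, 8.20 and 11.8 CPM in dry glands. Its log2 difference was −2.71 (SE 0.60, edgeR adjusted p = 0.0870). The lncRNA feature SLC43A1-IT1 averaged 6.12 CPM over all libraries, where SLC43A1 averaged 2.08 CPM, and exceeded SLC43A1 in 171 of 198 libraries. Another such feature, SLC43A1-OT1, averaged 1.06 CPM. With DESeq2, with scaling on features outside the lncRNA annotation, or with no filter, SLC43A1 passed the threshold. SLC6A14 did so with DESeq2 or with no filter, and SLC7A1 did so with DESeq2; over the alternatives their adjusted p ran from 0.00145 to 0.344, from 0.00220 to 0.402 and from 0.0327 to 0.452. For the evenly expressed carriers the differences were small: SLC7A11 was at 20.5, 17.1 and 15.3 CPM against 20.8, 18.1 and 19.99 CPM, a log2 difference of −0.05. SLC38A6, SLC7A7 and SLC36A4 differed by 0.24, 0.14 and −0.02.

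**Figure D2:**
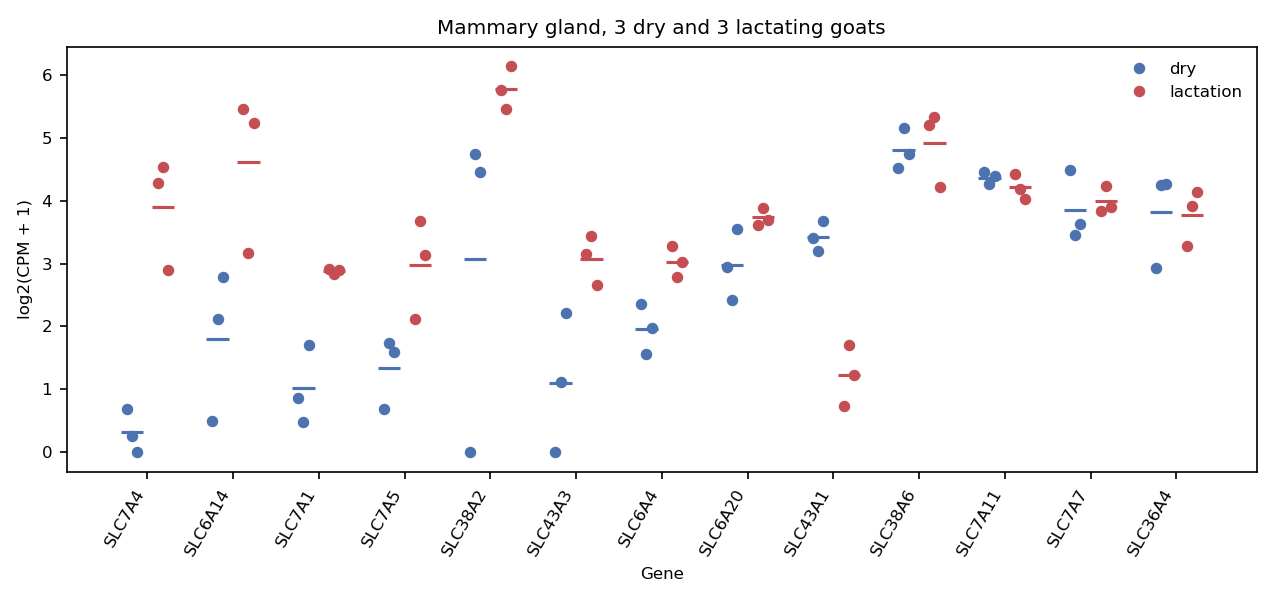
Points are log2(CPM + 1) of 13 transporters in the mammary glands of 3 dry and 3 lactating goats, and bars are group means. SLC7A4, SLC6A14, SLC7A1, SLC7A5 and SLC38A2 have all lactating points above all dry points, and SLC43A1 has them below.

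Markers of cell types moved beside these values. The summed level of 8 mammary epithelium genes was 255 to 307 CPM in the lactating and 26.7 to 180 CPM in the dry glands, and none of the 8 was called by edgeR (2 at an unadjusted p under 0.05). The stroma and blood cell genes summed to 182 to 667 CPM against 40.1 to 286 CPM. Their part in the transporter values was not tested. The heavy chain SLC3A2, which carries SLC7A5 to the membrane, was at 23.1, 8.87 and 14.0 CPM against 0.82, 9.57 and 10.4 CPM (log2 difference 1.3, edgeR adjusted p = 0.557). Of 16 genes of the amino acid stress response driven by ATF4, 10 were tested, 8 lay above 0 with a median of 1.62, and none was called by edgeR (3 at an unadjusted p under 0.05). The sum of this list was 97.6 to 134 CPM in lactating and 22.1 to 62.7 CPM in dry glands. Of 12 tested genes of amino acid sensing by mTORC1 and 9 of branched-chain and urea amino acid breakdown, edgeR called none, with 3 and 2 at an unadjusted p under 0.05 and medians of 0.39 and 0.31.

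Whether the mammary difference exceeded that in the rest of the body was tested with limma, taking from the mammary value of a goat the mean of its 32 other tissues. None of 41 members was called (background 0.131%), and 9 had an unadjusted p under 0.05. The lowest limma adjusted p was 0.0978, for SLC7A4, with a difference between states of 4.36 (SE 0.60).

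Against the other tissues of the same 3 lactating goats, the lactating mammary gland was higher in some members, led by SLC6A14 and SLC38A2, and lower in others. By limma on log2 CPM, 14 of 41 members were called (background 20.8%), 6 higher (background 7.48%) and 8 lower (background 13.3%). SLC6A14 was higher by 4.77 on the log2 scale (SE 0.72, limma adjusted p = 0.00644), at a mean of 29.1 CPM in the gland and 1.15 CPM elsewhere. SLC38A2 was higher by 2.02 (SE 0.26, limma adjusted p = 0.00346), at 55.0 CPM against 16.0 CPM. SLC7A5 (1.95), SLC43A3 (1.81), SLC7A1 (1.28) and SLC6A18 (1.17) were also called higher, and for SLC6A18 the means were only 1.72 and 1.36 CPM. The comparison is with a mean over tissues, and single tissues can match the gland. Over the goats of both states, SLC38A2 was at 36.1 CPM in esophagus and 35.3 CPM in mammary gland. SLC7A5 was also highest in esophagus, at 9.20 CPM. SLC6A14 was highest in the gland, at 16.2 CPM, with colon next at 9.98 CPM.

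The 8 lower included SLC7A14, SLC6A11, SLC7A8, SLC6A7, SLC6A15, SLC6A13 and SLC6A5, among them the GABA carrier SLC6A11 (−0.98). They ran from −2.34 for SLC7A14 to −0.17 for SLC6A5. SLC6A11, SLC7A8, SLC6A7, SLC6A15, SLC6A13 and SLC6A5 held no count in any lactating gland. The sizes of their differences therefore depend on the prior count. With goat as a replicate block, which pairs gland and other tissues within a goat, 8 members were called rather than 14. SLC7A14, SLC6A18, SLC7A1 and SLC7A5 lost theirs (limma adjusted p = 0.0677, 0.149, 0.108 and 0.0525 with the block). Leaving out a goat ended the calls of SLC6A14 (goat 2 or 6), SLC38A2 (goat 2) and SLC43A3 (goat 2 or 3), with limma adjusted p of up to 0.0849, 0.0679 and 0.0752; SLC6A11 was called under every alternative. Outside the families, SLC3A2 was higher by 1.90 and the glutamine carrier SLC1A5 by 0.97, both called, and 4 of 16 genes of the ATF4 list were called higher (ATF4, TRIB3, PSAT1 and MTHFD2).

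Over the 32 tissues other than the gland, each goat's mean log2 CPM was compared between states with limma. Of 41 members, 3 were called higher in lactation (background 4.58%) and 1 lower (background 5.79%), 4 in all against 10.4% of features. SLC6A20 was at 3.62, 3.78 and 3.78 in lactating goats 2, 3 and 6 and at 3.07, 2.99 and 3.02 in dry goats 54, 64 and 73 on the log2 CPM scale. The groups were far apart relative to their spread (difference 0.70, SE 0.08, limma adjusted p = 0.00177), with mean levels of 15.7 and 9.0 CPM. SLC6A20 had the larger lactating mean in 29 of 32 tissues and no overlap in that direction in 13, and its call held under every alternative. Without kidney medulla, pineal gland, ovary and adrenal cortex, a setting chosen after seeing the data, the difference was 0.73 (limma adjusted p = 0.00243; 0.0173 at most over the alternatives).

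SLC7A7 was at 4.12, 4.20 and 4.11 in lactating and 3.80, 3.68 and 3.87 in dry goats, also without overlap (difference 0.36, SE 0.07, limma adjusted p = 0.0170). Its lactating mean was the larger in 28 of 32 tissues. The call was lost without goat 64, with an adjusted p between 0.00477 and 0.0708 over the alternatives, and without the 4 tissues it was 0.43 (limma adjusted p = 0.0166). SLC7A1 was at 1.3, 1.52 and 1.17 against 0.88, 0.81 and 0.82 (0.50, SE 0.13, limma adjusted p = 0.0391), a call lost under 7 alternatives, with the 4 tissues left out (0.44, adjusted p = 0.0661) or without goat 2, 3, 54, 64 or 73 among them (limma adjusted p 0.0241 to 0.114 over all alternatives). SLC6A19 was lower by 0.36 (SE 0.07, limma adjusted p = 0.0137), and without the 4 tissues its difference was −0.16 (limma adjusted p = 0.162; from 0.00939 over the alternatives). SLC6A19 held no count in 173 of 198 libraries and reached a mean of 1 CPM in kidney medulla only. Most values behind its difference therefore depend on the prior count. Of 4 microglia and leukocyte genes, AIF1 and CSF1R were called higher in lactation by 0.45 and 0.38, while CX3CR1 (−0.08) and PTPRC (−0.16) were not called. Of 5 vessel and meninges genes, VWF was called higher by 0.61. PECAM1 (0.48), CLDN5 (0.18), DCN (−0.36) and COL1A1 (−0.50) were not called. Their part in the SLC6A20 and SLC7A7 values was not tested.

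Tissue by tissue, 616 pairs of a member and one of those 32 tissues were tested, and 21 were called (3.41%, background 1.93%). Of the 21, 15 were higher in lactation (background 0.927%) and 6 lower (background 1%). They fell on 13 members in 9 tissues. In the other 23 tissues, among them all 8 brain regions, liver, duodenum and the forestomach, edgeR called none of 435 pairs, with 51 at an unadjusted p under 0.05. Few features of any kind were called there (background 0.467%), and none at all in 6 of them, duodenum and hypothalamus included, so the absence of calls is not particular to the transporters.

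Kidney medulla held 6 of the 21 (6 of 21 members tested, background 15.1%), 3 lower (background 9.11%) and 3 higher (background 6.02%). The 3 lower were carriers of the proximal tubule, the segment that reabsorbs amino acids. SLC6A19 was at 0.232, 0.409 and 0 CPM in lactating goats 2, 3 and 6 and at 31.0, 34.7 and 40.3 CPM in dry goats 54, 64 and 73. All lactating values were at or under the level of 3 counts, so the fitted log2 difference of −7.54 depends on the prior count (SE 0.49, edgeR adjusted p = 3.36e-06). SLC7A8 was at 0, 1.43 and 0 CPM against 29.7, 24.0 and 14.5 CPM (−5.76, SE 0.74, edgeR adjusted p = 0.000260), and SLC7A7 at 23.9, 14.1 and 26.5 CPM against 97.9, 48.4 and 97.4 CPM (−2.28, SE 0.30, edgeR adjusted p = 0.000323). SLC6A18, which neighbours SLC6A19, was at 6.26, 14.1 and 7.99 CPM against 26.9, 14.3 and 13.6 CPM and was not called. The 3 higher were SLC38A2 at 23.2, 20.1 and 41.4 CPM against 6.05, 4.69 and 4.64 CPM (2.10, edgeR adjusted p = 0.00144), SLC7A4 (2.94, edgeR adjusted p = 0.0108) and SLC38A1 (2.46, edgeR adjusted p = 0.0220).

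Markers of the tubule segments differed between the same libraries. Proximal tubule genes summed to 73.9 to 246 CPM in the lactating and 1119 to 2074 CPM in the dry libraries, 8 of 9 tested being called lower. Genes of the loop of Henle and collecting duct summed to 334 to 1223 CPM against 107 to 144 CPM. LRP2, the proximal tubule receptor megalin, was at 44.5, 169 and 37 CPM against 1394, 668 and 886 CPM, and the heavy chain SLC3A1 at 18.1, 26.8 and 12.8 CPM against 109, 54 and 114 CPM. The state of the goats and the makeup of these kidney libraries cannot be told apart.

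The pineal gland (background 7.97%) had 2 calls of 23 tested. SLC43A1 was at 2.41, 2.92 and 0.629 CPM in lactating and 44.1, 55.8 and 58.8 CPM in dry goats, with no overlap (−4.43, SE 0.45, edgeR adjusted p = 0.00131). SLC7A14, a lysosomal member of the cationic branch, was at 9.25, 18.4 and 6.08 CPM against 2.75, 3.85 and 2.42 CPM (2.12, edgeR adjusted p = 0.0410). The SLC7A14 call was lost on leaving out goat 2, 54, 64 or 73 (edgeR adjusted p 0.00244 to 0.167 over the alternatives). In the lactating goats' pineal libraries the defining genes of pinealocytes summed to 0.201 to 7.51 CPM, against 106 to 191 CPM in the dry ones. TPH1, the first enzyme of melatonin synthesis, was at 0, 0 and 0.42 CPM against 125, 57.1 and 100 CPM. State and the content of these libraries cannot be told apart.

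SLC7A4 was called in opposite directions in different tissues. In adenohypophysis (2 of 22 called, background 2.83%) it was at 21.2, 16.1 and 21.3 CPM in lactating and 129, 64.7 and 84.1 CPM in dry goats (−2.06, SE 0.27, edgeR adjusted p = 0.00266). In neurohypophysis (2 of 19, background 2.73%) it was at 22.2, 30.2 and 9.42 CPM against 148, 132 and 119 CPM (−2.58, SE 0.28, edgeR adjusted p = 0.000154). In lung (2 of 19, background 1.74%) it was at 65.4, 123 and 66.7 CPM against 27.5, 23.3 and 26.2 CPM (1.56, SE 0.26, edgeR adjusted p = 0.00823). In none of these 3 tissues did the states overlap, and the 3 calls were made under every alternative. A direct limma test of the lung effect minus the adenohypophysis effect, added after seeing the data, gave 3.44 with an adjusted p of 0.150 (0.313 at most over the alternatives), so this difference between tissues did not pass. SLC7A4-OT1 was at 51.5, 43.7 and 41.5 CPM against 112, 113 and 92.6 CPM in adenohypophysis and at 81.5, 126 and 104 CPM against 43.9, 48.1 and 59.2 CPM in lung. Reads of SLC7A4 and of this feature cannot be told apart where they overlap.

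The second pituitary calls were glutamine carriers, both higher in lactation. SLC38A2 in adenohypophysis was at 8.54, 9.92 and 10.2 CPM against 1.2, 4.64 and 2.54 CPM (1.99, SE 0.48, edgeR adjusted p = 0.0398; 0.00479 to 0.113 over the alternatives, lost without goat 2, 3, 6, 54 or 73). SLC38A1 in neurohypophysis was at 11.8, 16.2 and 14.2 CPM against 6.81, 4.10 and 3.43 CPM (1.68, SE 0.37, edgeR adjusted p = 0.0245; 0.00296 to 0.110 over the alternatives, lost without goat 3, 6, 64 or 73).

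SLC6A20 was called higher in lactation in 3 tissues. In lung it was at 42.0, 54.3 and 63.9 CPM against 21.3, 22.1 and 16.3 CPM (1.23, SE 0.24, edgeR adjusted p = 0.0190). In spleen (1 of 21 called, background 0.966%) it was at 21.7, 37.1 and 22 CPM against 7.14, 5.13 and 7.83 CPM (1.87, SE 0.35, edgeR adjusted p = 0.0285). In colon (1 of 18, background 2.59%) it was at 29.7, 32.9 and 20.1 CPM against 8.79, 11.8 and 7.85 CPM (1.26, SE 0.31, edgeR adjusted p = 0.0464). No lactating library overlapped a dry one in these tissues. Each call was lost on leaving out some goats: goat 3, 6 or 73 in lung, goat 3, 54, 64 or 73 in spleen, and goat 2, 3, 6, 54 or 73 in colon. The highest edgeR adjusted p over the alternatives was 0.0873, 0.159 and 0.189, and the lowest 0.000227, 4.39e-05 and 0.00919.

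**Figure D3:**
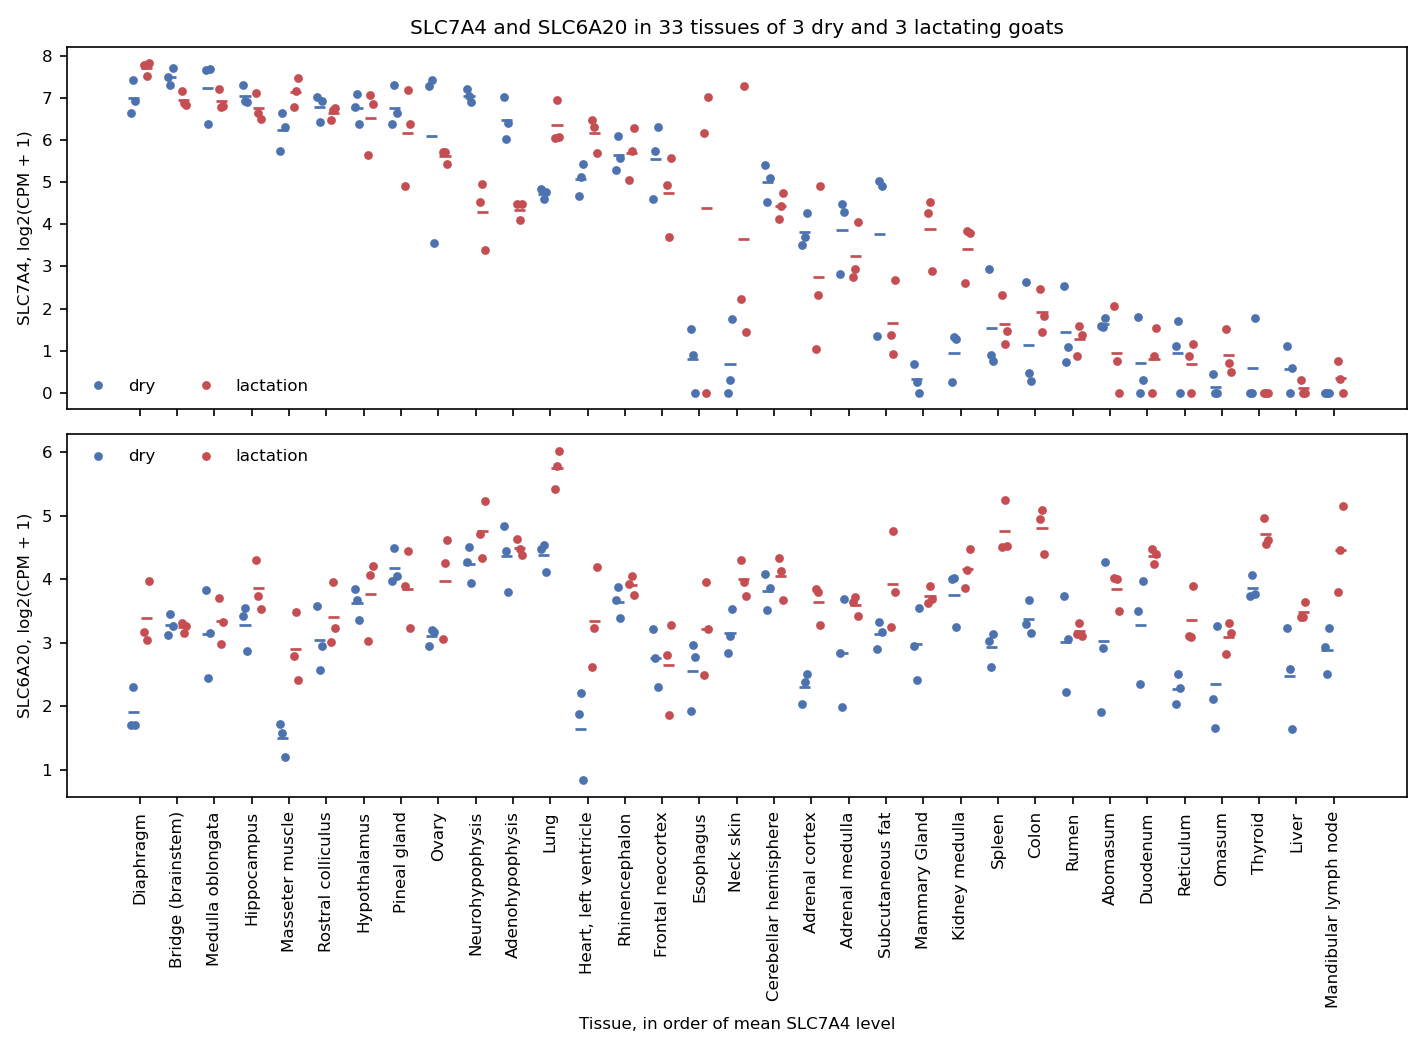
SLC7A4 and SLC6A20 in all 33 tissues as log2(CPM + 1), with 3 dry and 3 lactating goats as points and group means as bars. The lactating mean of SLC6A20 lies above the dry mean in 29 of the 32 tissues other than mammary gland, while that of SLC7A4 lies above it in 11 of those tissues.

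Adrenal cortex (3 of 22 called, background 3.43%) and ovary (2 of 16, background 11.7%) held the remaining calls, all higher in lactation. In adrenal cortex SLC6A17, a vesicular carrier of neutral amino acids, was at 13.3, 4.22 and 8.60 CPM against 0.889, 0.183 and 1.09 CPM (3.35, SE 0.68, edgeR adjusted p = 0.0214). SLC6A6 was at 17.5, 14.3 and 13.5 CPM against 5.87, 1.64 and 2.90 CPM (1.91, edgeR adjusted p = 0.0394), and SLC7A1 at 5.62, 9.04 and 6.24 CPM against 1.07, 1.64 and 0.181 CPM (2.64, edgeR adjusted p = 0.0490). Chromaffin cell genes, of the adrenal medulla, summed to 9.89 to 96.9 CPM against 186 to 525 CPM in the same libraries. In ovary SLC7A10, the alanine-serine-cysteine exchanger Asc-1, was at 12.1, 17.9 and 16.4 CPM against 0, 1.21 and 2.71 CPM (3.05, SE 0.67, edgeR adjusted p = 0.0243), and SLC38A2 at 17.3, 17.7 and 17.7 CPM against 1.80, 5.71 and 6.05 CPM (1.55, edgeR adjusted p = 0.0478). Epithelial genes in ovary summed to 8.31 to 18.7 CPM against 40.6 to 168 CPM. Whether either marker shift bears on the carriers was not tested. All 5 calls were lost on leaving out at least 3 of the goats in turn, SLC6A17 without goat 2, 54 or 64, SLC6A6 without 2, 3, 64 or 73, SLC7A1 without any of the 6, SLC7A10 without 2, 3, 6 or 64 and SLC38A2 without 2, 3, 6, 54 or 64. Over the alternatives their edgeR adjusted p reached 0.126, 0.136, 0.170, 0.118 and 0.146, from lowest values of 2.71e-05, 0.000394, 0.00377, 4.17e-05 and 0.00398.

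The brain was compared with the body through 12 values, each goat's mean log2 CPM over 8 brain regions and over 22 tissues outside brain, pineal gland and pituitary. By limma, 29 of 41 members were called, 20 higher in brain (background 34.4%) and 9 lower (background 32.6%); 70.7% of members against 66.9% of all features is close to the background. SLC7A4 ran from 5.88 to 6.48 in brain and from 1.95 to 2.71 in body on the log2 CPM scale over the 6 goats (difference 3.82, SE 0.14, limma adjusted p = 7.53e-13), at 93.5 and 27.0 CPM. Other carriers over 2 on this scale were SLC6A17 on synaptic vesicles (3.21), SLC7A10 of astrocytes (2.82), SLC6A11 (2.45), SLC38A8 (2.28) and SLC7A14 (2.28). SLC6A15, a neuronal carrier of branched-chain amino acids and proline, was higher by 1.98, and its lncRNA feature SLC6A15-OT1 averaged 37.7 CPM where SLC6A15 averaged 0.673 CPM. For all of these the goats' brain and body values did not overlap, and the calls held under every alternative, goat 2 left out among them (SLC7A4 3.93 without goat 2).

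The 9 lower in brain included SLC38A2 and SLC6A14. SLC38A2 ran from 1.69 to 3.2 in brain and from 3.82 to 4.36 in body (−1.71, SE 0.21), at 6.74 and 20.2 CPM. SLC6A14 was at 0.115 and 2.63 CPM (−1.21, SE 0.11), SLC43A3 differed by −1.08 (SE 0.23), and SLC6A8, the creatine carrier, by −0.89 (SE 0.20), at 3.19 and 6.0 CPM. SLC38A4 (−0.63), SLC6A6 (−0.59), SLC43A1 (−0.58), SLC36A4 (−0.54) and SLC6A4 (−0.45) made up the 9. All 7 tested neuronal and 5 tested astrocyte marker genes were higher in brain, the heavy chain SLC3A1 was higher by 0.98, and SLC3A2 was lower by 0.81.

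Within the brain the carriers had different highest regions. SLC6A11 was highest among the regions in rostral colliculus, at 10.6 ± 5.38 CPM (SD, n = 6), and was at 0.971 CPM in hippocampus, whose libraries were the shallowest. SLC7A14 was highest in hippocampus at 26.0 ± 14.3 CPM, and SLC6A17 in frontal neocortex at 14.5 ± 8.48 CPM with goat 2 at 1.95 CPM. SLC6A5, the glycine carrier of inhibitory neurons in the hindbrain, was highest in medulla oblongata at 2.33 ± 1.59 CPM, where the second glycine carrier SLC6A9 was at 5.06 ± 1.79 CPM. SLC7A4 was the member with the most counts in 7 of the 8 regions, from 40.4 CPM in frontal neocortex to 153 CPM in the bridge, while in cerebellar hemisphere that place was held by SLC7A10 at 41.5 ± 10.1 CPM. SLC7A10-OT1, an lncRNA feature, exceeded SLC7A10 in all 198 libraries.

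**Figure D4:**
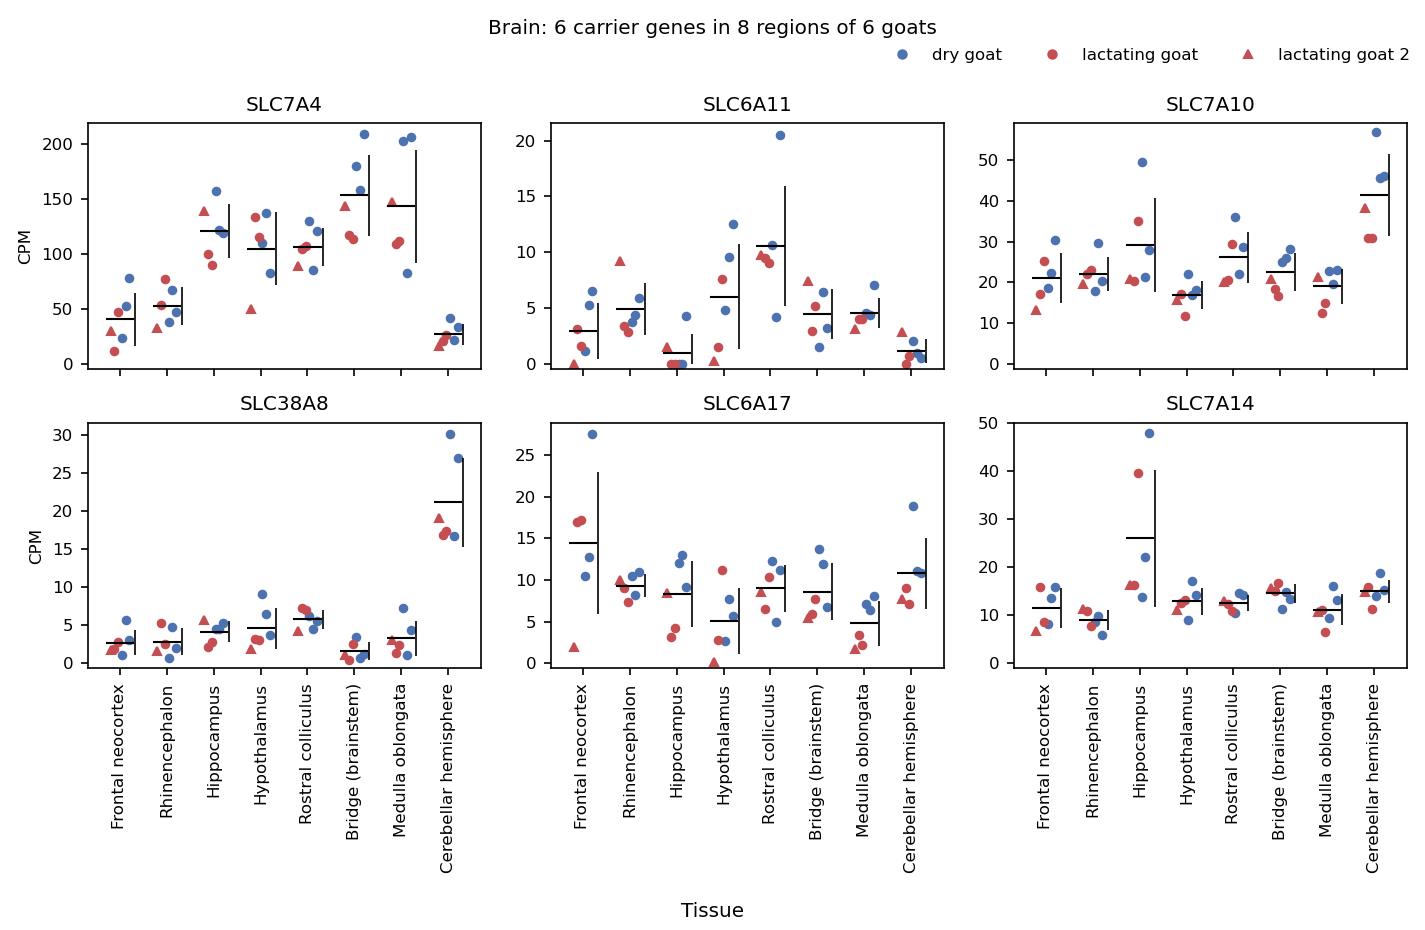
CPM of SLC7A4, SLC6A11, SLC7A10, SLC38A8, SLC6A17 and SLC7A14 in 8 brain regions, with points for the 6 goats, blue for dry and red for lactating, triangles for goat 2, horizontal bars for means and vertical lines for ± SD ending at 0 where they would pass it. SLC38A8 in cerebellar hemisphere, at 16.7 to 30.1 CPM, lies above every frontal neocortex value.

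The cerebellar hemisphere was tested against the frontal neocortex as the one direct contrast of brain regions, and 3 of 20 members were called (background 21.5%). SLC38A8, a glutamine carrier that overlaps NECAB2 in RefSeq, was at 16.7 CPM at the lowest, 18.2 CPM at the median and 30.1 CPM at the highest in cerebellum, and at 1.14, 2.36 and 5.68 CPM in neocortex. The log2 difference was 2.56 (SE 0.32, edgeR adjusted p = 1.60e-05); without goat 2 it was 2.5 and the call held under every alternative. SLC6A20 ran from 10.4 to 19.2 CPM against 2.62 to 8.68 CPM, without overlap (0.90, SE 0.29, edgeR adjusted p = 0.0323), and lost its call without goat 2, 3, 64 or 73 (0.00406 to 0.101 over the alternatives). SLC7A4 ran from 16.4 to 41.4 CPM against 12.1 to 78.0 CPM with overlap (−0.96, SE 0.31, edgeR adjusted p = 0.0319), and lost its call without goat 6, 64 or 73 (0.0112 to 0.215 over the alternatives).

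SLC38A2 was the member with the most counts in esophagus (36.1 CPM), rumen, reticulum and omasum, SLC38A6 was so in abomasum (19.9 CPM) and duodenum (22.6 CPM), and SLC7A11 in colon (25.9 CPM). In the gut, each goat's mean over duodenum and colon was compared with its mean over rumen, reticulum and omasum, the forestomach compartments lined by stratified squamous epithelium. By limma, 10 of 41 members were called (background 24.1%), 6 higher in intestine (background 13.2%) and 4 lower (background 10.9%). SLC6A18 was higher by 2.23 on the log2 scale (SE 0.30, limma adjusted p = 0.000234), at 2.90 CPM against 0.195 CPM. SLC38A3 was higher by 1.56 (SE 0.26, limma adjusted p = 0.000925), at 1.90 against 0.0541 CPM, and within the intestine it was at 1.01 to 6.33 CPM in duodenum and 0 to 1.97 CPM in colon. SLC7A10 (1.59, SE 0.33, limma adjusted p = 0.00384) and SLC6A6 (1.59, SE 0.36, limma adjusted p = 0.00644) were higher too. SLC6A6 had means of 2.67 and 2.27 CPM in duodenum and colon and of at most 0.430 CPM in the forestomach compartments. SLC6A20 (0.88) and SLC6A7, a proline carrier (1.05), completed the 6. The SLC6A20 call (limma adjusted p = 0.0458; 0.00597 to 0.118 over the alternatives) was lost without goat 2, 3, 6, 54 or 73.

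SLC38A2 was lower in intestine by 0.86 (SE 0.10, limma adjusted p = 8.42e-05; −0.87 without goat 2). Its means were 26.8 ± 7.42 CPM in rumen, 22.7 ± 8.46 CPM in reticulum, 33.7 ± 7.94 CPM in omasum, 17.5 ± 4.12 CPM in duodenum and 18 ± 2.80 CPM in colon (SD, n = 6). SLC7A2 (−1.13, limma adjusted p = 0.0337), SLC6A4 (−0.92, limma adjusted p = 0.0291) and SLC6A14 (−1.39, limma adjusted p = 0.0389) were also lower. For SLC6A14 the intestine holds unlike tissues: its mean was 9.98 CPM in colon, above the 4.36, 5.40 and 8.77 CPM of rumen, reticulum and omasum, and 0.54 CPM in duodenum, and colon alone was not tested against the forestomach. The SLC6A14 call was lost with the goat block (adjusted p = 0.116) and without goat 2, 3, 6 or 54 (0.0151 to 0.149 over the alternatives). SLC7A2 lost its call without goat 3, 6, 54 or 73 (0.0227 to 0.122) and SLC6A4 without goat 2, 3, 64 or 73 (0.0269 to 0.110). Squamous epithelium genes (5 of 5) and smooth muscle genes (5 of 5) were lower in intestine and 6 of 7 absorptive epithelium genes were higher. Their part in the carrier values was not tested.

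**Figure D5:**
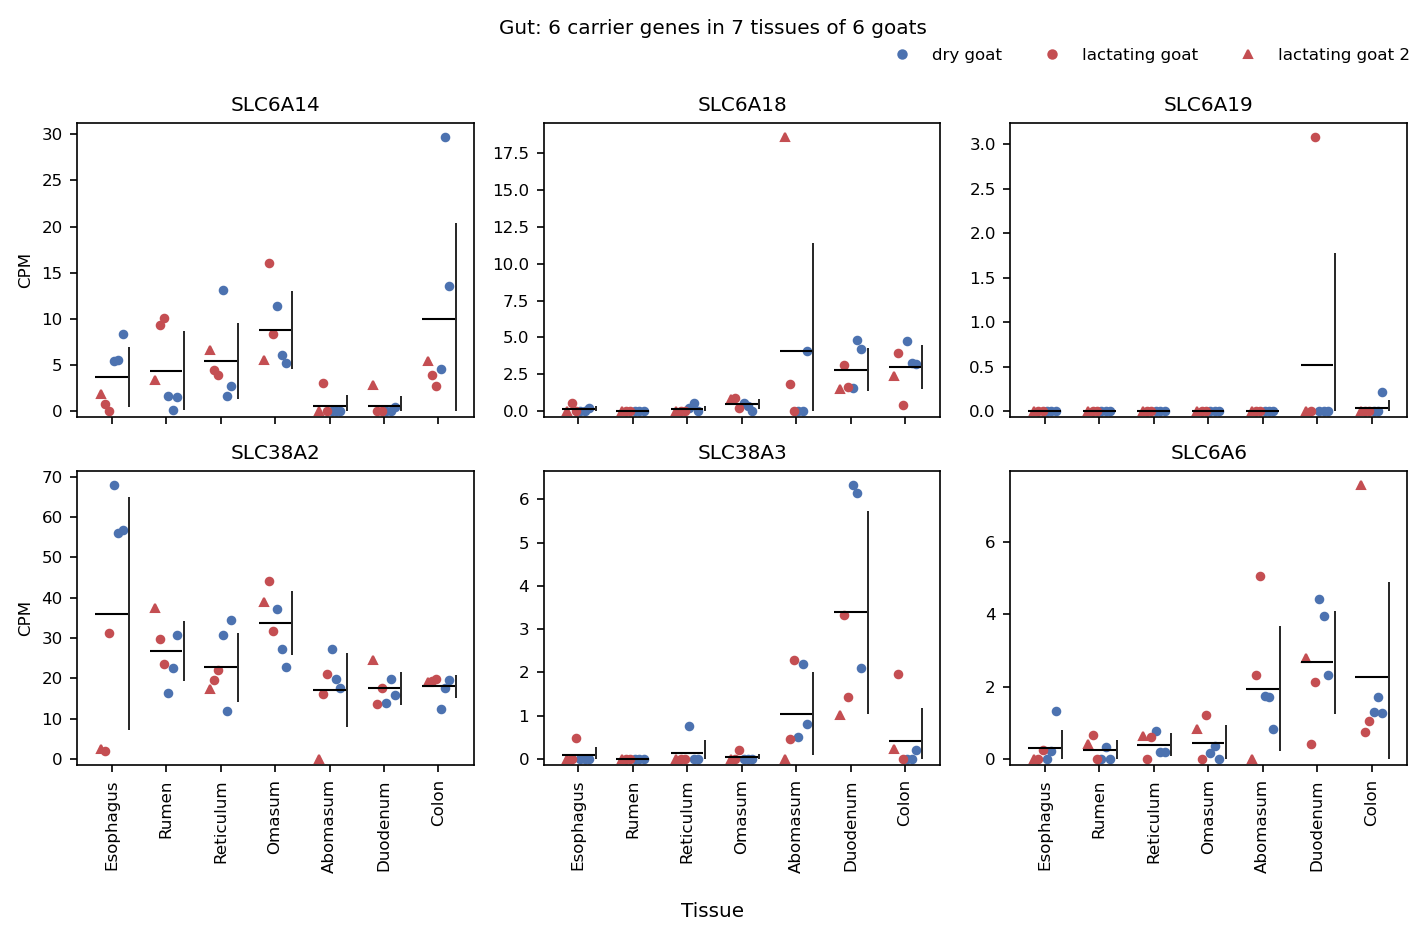
CPM of SLC6A14, SLC6A18, SLC6A19, SLC38A2, SLC38A3 and SLC6A6 in 7 gut tissues, with points for the 6 goats, blue for dry and red for lactating, triangles for goat 2, horizontal bars for means and vertical lines for ± SD ending at 0 where they would pass it. SLC38A2 is at 22.7 to 33.7 CPM on average in the forestomach and at 17.5 and 18 CPM in duodenum and colon.

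Duodenum and colon were also compared directly, and 1 of 16 members was called (6.25%, background 4.86%). SLC6A14 was at 0 CPM in 4 duodenum libraries, at 0.47 CPM in a dry goat and at 2.78 CPM in goat 2, whose duodenum library held stomach genes. In colon it was at 4.52, 29.7 and 13.5 CPM in dry goats 54, 64 and 73 and at 5.45, 3.94 and 2.73 CPM in lactating goats 2, 3 and 6, so that only the lowest colon value overlapped the goat 2 duodenum. The log2 difference, fitted against zeros, was −4.30 (SE 0.94, edgeR adjusted p = 0.0107) and −6.64 without goat 2 (edgeR adjusted p = 0.000642). The call was lost without goat 64 (−3.18, adjusted p = 0.0776) or 73 (−4.18, adjusted p = 0.0565). SLC6A19, the apical carrier of the small intestine in other mammals, was at 3.08 CPM in the duodenum of goat 6 and at 0 in the other 5, where 3 counts would be under 1 CPM. SLC6A18 was at 18.6 CPM in the abomasum library of goat 2, against a mean of 4.09 CPM over all 6 abomasum libraries. In the goat 6 duodenum, and in the other 4 apart from goat 2, FABP2 was at 27.0 to 162 CPM.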

How the data were processed

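Total RNA of 33 tissues of 6 goats was sequenced with a strand-specific kit, per the labels' protocols. STAR, StringTie and edgeR are listed in the submitters' processing notes without versions or roles, and no genome build was found in the labels. The authors deposited expected counts per feature and library. Of the values above 0, 36.9% had a fractional part, and all were rounded for the fits. A table of natural log offsets that the authors deposited served only as an alternative scaling. The tau values in the authors' deposited table are fractions and were set beside tau computed here. All columns were matched to samples by label. All 45 members were found in RefSeq (ARS1.2), used for names and neighbours only; no sequence is printed.

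Each tissue's states, and each pair of tissues, were compared with edgeR 4.0.16 (R 4.3.3; quasi-likelihood test, TMM, filterByExpr minimum count 10) over all features, with Benjamini-Hochberg adjustment at 0.05. The SE is the log2 difference over the square root of the F statistic. Sets of tissues were compared with limma 3.58.1 (trended eBayes) on goat means of log2 CPM (prior count 2) for features of at least 1 CPM in some tissue. Tables were summarised with Python 3.11.15 and pandas 2.3.3. Alternatives were DESeq2 1.42.0, other scalings, filters and prior counts, leaving out each goat, and a goat block. The scripts were tested on simulated data.

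Tissues of 1 goat are paired by label. Correlations of a goat's deviations with its own were 0.0409 to 0.144 between duodenum and colon, 0.0511 to 0.141 between cerebellum and neocortex, 0.0811 to 0.255 between brain and body and 0.104 to 0.220 between intestine and forestomach, and 5, 5, 5 and 6 of 6 goats correlated best with themselves. Members and lists were chosen with earlier results of these data known. Named with values were: members called for state in any tissue; in the mammary gland also those without overlap at 5 CPM or more and the 8 highest in lactation; in each tissue comparison the 8 largest called rises and falls at 1 CPM or more; the 8 highest means, the 8 highest tau at 2 CPM or more and the 4 lowest tau; and the highest member of each brain and gut tissue. Members sharing a role may stand beside these. The muscle, proximal tubule, pinealocyte and similar marker lists were added after seeing the data. The values of 1 member are not reported here; it remains in the counts of members.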

Additional observations from a re-analysis of the deposited data

Results flagged for a closer look

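Of 58 groups of 6 values examined for the named transporters, 4 held 1 value far from the other 5 (gap over range above 0.625, which chance gives in about 1 in 20 groups). SLC6A14 in duodenum was at 2.78 CPM in goat 2, whose library held stomach genes, and at 0.47 CPM or less in the others. The brain mean of SLC43A1 was −0.82 on the log2 CPM scale in goat 3. The mean of SLC7A10 over the tissues outside the brain was 2.13 on that scale in goat 6. The forestomach mean of SLC38A3 was −0.68 in goat 54.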

How the results depend on the processing

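Of 77 transporter results followed through the alternatives, 64 were called, 34 of these were called under every alternative, 30 were lost under at least 1 (15 of them only when a goat was left out), 3 were gained and none reversed. In the mammary gland the count of 1 called transporter became 4 with DESeq2, 2 with scaling outside the lncRNA annotation, 3 with no filter and 0 at a minimum count of 30, where SLC7A4 was not tested, and it was 0 to 1 on leaving out a goat. Over the 32 other tissues the count of 4 became 7 with library totals, 2 without kidney medulla, pineal gland, ovary and adrenal cortex, and 2 to 5 without a goat. The 21 pairs of a transporter and a tissue became 40 with DESeq2, 45 with no filter, 13 without kidney medulla and pineal gland, and 12 to 19 without a goat. For duodenum against colon the count of 1 became 2 with no filter and 0 at a minimum count of 30, and was 0 to 1 without a goat; for cerebellum against neocortex the count of 3 became 5 with library totals and 1 to 5 without a goat. Without a goat, intestine against forestomach gave 6 to 10, brain against body 25 to 29 and the lactating gland against other tissues 8 to 10. With goat as a replicate block the lactating gland gave 8 of 14; the block left the other counts at 1, 3, 29 and 10, and ended 1 further call named in the text, that of SLC6A14 in intestine against forestomach. Transporters with tau of at least 0.8 numbered 5 rather than 11 with CPM outside the lncRNA annotation and 9 to 13 without a goat, and 36 to 41 of 45 kept their highest tissue. The causes were not tested. At a median depth of 4631624 counts, most of them on lncRNA features, 27 of the 45 transporters were too low to test between states in the mammary gland.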

Other observations

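Carriers outside the 5 families also differed between states in the mammary gland. SLC1A2, a glutamate carrier best known from astrocytes, was at 9.86, 10.2 and 11.1 CPM in the lactating glands of goats 2, 3 and 6 and at 0.20, 0 and 0.23 CPM in the dry glands, with no overlap. Its log2 difference was 6.06 (SE 0.82, edgeR adjusted p = 0.0155), fitted against values under the level of 3 counts, and its mammary difference exceeded that over the 32 other tissues by 4.20 (limma adjusted p = 0.0260). GFAP, a defining astrocyte gene, was at 0 to 0.59 CPM in these glands. SLC16A10, a facilitator of aromatic amino acids that overlaps another gene in RefSeq, was at 11.7, 13 and 6.88 CPM in lactating and 29.3, 40.2 and 44.1 CPM in dry glands (−1.76, SE 0.32, edgeR adjusted p = 0.0465). SLC1A5, the glutamine exchanger, was at 9.86, 9.55 and 7.99 CPM against 2.87, 2.54 and 0.68 CPM without overlap and did not pass (2.21, edgeR adjusted p = 0.191). SLC1A2, SLC16A10 and SLC1A5 were chosen after their values were seen.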
